A study of Solanum tuberosum with 8 samples.

Results

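The genes described here are the 54 tested genes of potato (Solanum tuberosum) whose listed start lies from 1 Mb to below 2 Mb on chromosome 1. They are 54 of 19664 tested genes in the table and 54 of 2494 on that chromosome, where tested means that the authors' comparison gave the gene the status OK. The window was chosen by the authors' own calls, because many of its genes were called higher after dormancy, so counts of calls in it describe the choice and do not support it. RNA was sequenced from the bud meristems of field-grown tubers of 1 cultivar, Russet Burbank. The 4 nondormant samples, labelled with the springs of 2006, 2008, 2010 and 2011, came from tubers kept at 4 °C until buds began to show. The 4 dormant samples, labelled with the falls of 2005, 2007, 2009 and 2010, were taken about 2 weeks after harvest. The table has 1 FPKM value (sequenced fragments scaled to transcript length and to the size of the library) for each gene in each state. Levels and ratios therefore stand without a replicate error, and the read depth behind them is unknown. Dormancy cannot be told apart here from time in storage, from cold and from the season of collection, which differ along with it. The labelled years differ between the states too, with only 2010 in both.

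Tuber buds, the eyes of the potato, hold a shoot meristem that stops dividing in dormancy. During dormancy its cells rest in the cell cycle and the bud does not grow out even under good conditions. Abscisic acid and ethylene are known for their part in keeping buds dormant, and cytokinins and gibberellins for the return of cell division and sprout growth. The table gives identifiers and positions without names, and 0 of the window's identifiers matched the RefSeq gene table of assembly SolTub_3.0, so no function is given to any of the genes. For the same reason tissue markers could not be looked up, and how much other tissue was cut out with the buds was not tested. They are numbered here from 1 to 54 in their order along the chromosome, with positions as the deposited table prints them, for which no genome build is named in the sources used here.

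The 12 genes of this window that the authors' test called differed by 3.48-fold or more between the states, where a ratio could be taken. Most of the others differed by 1.5-fold or less. The call picks genes that differ, so this separation is partly built in. The authors' deposited table called 12 of the 54 genes (22.2%) higher in nondormant meristems at a q of 0.05 or less, and 0 higher in dormant meristems. At an unadjusted deposited p under 0.05, 14 genes were higher in nondormant buds and 2 in dormant buds, in the same table. The share of all tested genes at that unadjusted cut was not counted, so these numbers stand without a background. At a q of 0.05 or less, 7.17% of all tested genes were called higher in nondormant buds and 3.75% in dormant buds. In the rest of chromosome 1, with 2440 tested genes, 160 (6.56%) were called higher in nondormant buds and 94 (3.85%) in dormant buds. All 12 called genes also had a deposited q under 0.01, a bound that 3.59% of all tested genes passed in this direction. For 8 of the 12, the p of the authors' test was the smallest that their table holds (5e-05), with a q of 0.00179. These equal q values therefore do not rank the 8 genes. Over all tested genes, 405 of the 1410 called in this direction had the same smallest p. In the rest of chromosome 1, 50 of the 160 did. In bulk tissue, a lower share of the cells that express a gene and less of its RNA per cell cannot be told apart.

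The middle of the window's genes was not raised. The median log2 ratio of nondormant over dormant was -0.04 (quartiles -0.33 and 0.90) over the 53 genes listed above 0 in both states. The median was -0.08 (quartiles -0.54 and 0.50) in the rest of chromosome 1 and -0.05 over all tested genes. Nondormant values exceeded dormant ones in 26 of the 54 genes (48.1%), and in 46.2% of the rest of the chromosome. The window's median thus lay close to its background, and its upper quartile above it. The 18 genes that start from 1.5 Mb on had a median log2 ratio of 1.08, and the 36 before them one of -0.07. That 1.08 falls in a gap with no genes, between 9 called genes at 2.15 or more and 9 uncalled ones at 0.0148 or less. These 9 uncalled genes had a median of -0.05, so the 1.08 reflects the calls by which the window was chosen. Summed over the 54 genes, the values came to 3038 FPKM in nondormant buds (0.360% of the table) and 2529 FPKM in dormant buds (0.297%).

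**Figure D1:**
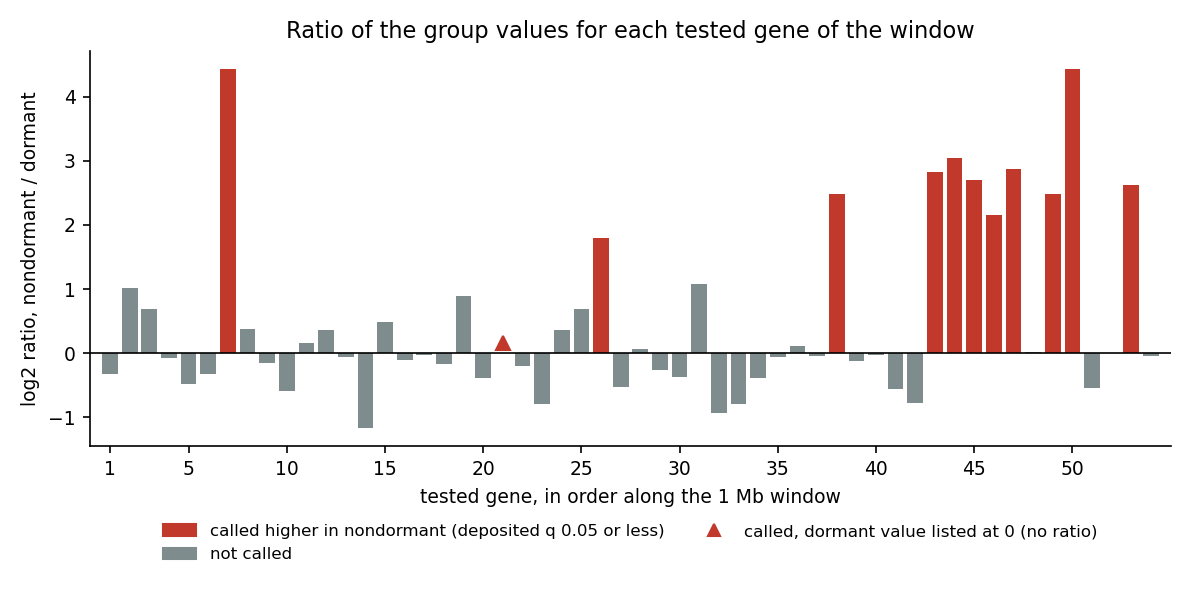
Log2 ratio of the nondormant over the dormant value for each of the 54 tested genes in order along the window, with called genes in red, genes not called in grey, and a triangle for the called gene whose dormant value is listed at 0. The red bars range from 1.80 to 4.44 and crowd toward the right, while the grey bars lie between -1.17 and 1.07.

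The 12 called genes fell into a sparse part and a dense part. Of the 36 tested genes that start below 1.5 Mb, 3 were called, and of the 18 that start above it, 9 were called. In the stretch from 1636073 to 1979624, which spans 344 kb, 8 of 11 consecutive tested genes were called. Before it, 4 of 42 were. The ends of this stretch were set after the values were seen. Among sets of 11 consecutive tested genes elsewhere in the table, the highest number called in this direction was 6, and on chromosome 1 it was 5.

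The dense stretch opened with gene 43, from 1636073 to 1649585, a weakly expressed locus with 3.50 FPKM in nondormant buds and 0.495 FPKM in dormant buds (7.08-fold). Its deposited q of 0.00671 in the authors' deposited table was the highest among the 12. After quantile normalization of log2(value + 1) its log2 ratio is 1.43, against 2.82 computed from the deposited group values. With 1 added to both values and no such normalization it is 1.59. Gene 44, PGSC0003DMG400032156, from 1720799 to 1723144, had 78.3 FPKM in nondormant buds and 9.43 FPKM in dormant buds, an 8.30-fold difference (log2 ratio 3.05, q = 0.00179 in the authors' deposited table). It stood at percentile 90.3 of all tested genes by its nondormant value and at percentile 45.3 by its dormant value. By rank it was thus among the abundant transcripts of nondormant buds and a middling one of dormant buds.

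Gene 45, PGSC0003DMG400032208, from 1745214 to 1748837, reached 160 FPKM in nondormant against 24.6 FPKM in dormant buds, 6.53-fold (log2 ratio 2.71, q = 0.00179 in the authors' deposited table). It lies 22.1 kb from gene 44. Gene 46, from 1764657 to 1766554, had 7.31 FPKM in nondormant buds and 1.65 FPKM in dormant buds (4.44-fold, q = 0.00409 in the authors' deposited table). Genes 44, 45 and 46 thus differed by 4.44-fold to 8.30-fold while their nondormant levels ran from 7.31 to 160 FPKM.

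Gene 47, from 1847424 to 1849616, had 17.0 FPKM in nondormant buds and 2.32 FPKM in dormant buds (7.33-fold, q = 0.00179 in the authors' deposited table). Gene 49, from 1897607 to 1900369, was the most abundant called gene of the window, with 372 FPKM in nondormant buds and 66.4 FPKM in dormant buds (5.60-fold, q = 0.00179 in the authors' deposited table). It was already at percentile 88.3 in dormant meristems and stood at percentile 98.0 in nondormant ones. The gene just before it, gene 48, begins at 1894156, ends 2.73 kb away, and had 5.74 FPKM in nondormant buds and 5.68 FPKM in dormant buds. A raised gene and a level one (5.60-fold and 1.01-fold) thus lay side by side. The identifiers of genes 48 and 49 end in the same digits, and whether they belong to the same gene model was not tested.

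Gene 50, from 1924553 to 1925982, had the largest ratio among the 53 genes above 0 in both states, with gene 7 close behind it. Its values were 22.1 FPKM in nondormant buds and 1.02 FPKM in dormant buds (21.7-fold, log2 ratio 4.44, q = 0.00306 in the authors' deposited table). The log2 ratio is 3.48 after quantile normalization of log2(value + 1), and 3.52 with 1 added to both values alone. Gene 51 starts 4.07 kb after it and had 3.96 FPKM in nondormant buds and 5.77 FPKM in dormant buds (log2 ratio -0.55, not called). The last called gene, gene 53, from 1969989 to 1979624, had 13.9 FPKM in nondormant buds and 2.26 FPKM in dormant buds (6.16-fold, q = 0.00179 in the authors' deposited table). Both genes around gene 53 were flat: gene 52, which ends 1.78 kb before it, had 4.94 FPKM in nondormant buds and 4.93 FPKM in dormant buds, and gene 54 had 1.37 FPKM in nondormant buds and 1.42 FPKM in dormant buds.

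**Figure D2:**
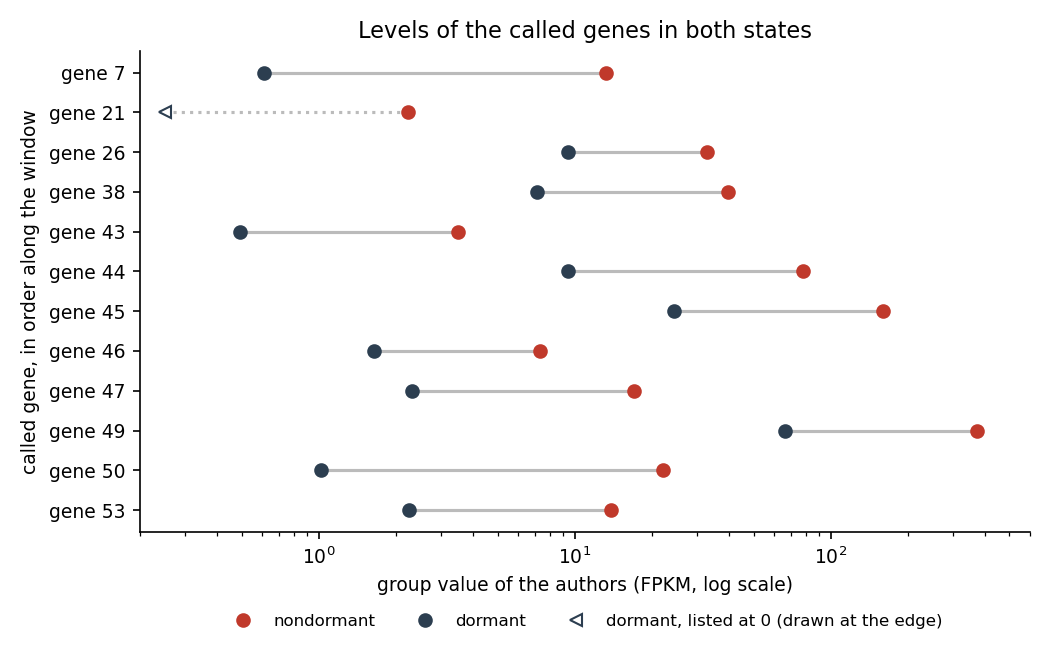
Authors' group values in FPKM (log scale) of the 12 called genes in order along the window, nondormant in red and dormant in dark blue, joined by a line. The nondormant values run from 2.23 to 372 FPKM and every red point lies to the right of its dark one, as the choice of called genes requires.

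Outside the dense stretch the called genes stood alone. Gene 7, from 1079729 to 1080542, had 13.3 FPKM in nondormant buds and 0.614 FPKM in dormant buds (21.6-fold, log2 ratio 4.43, q = 0.00179 in the authors' deposited table). Quantile normalization of log2(value + 1) brings the log2 ratio to 3.06, where adding 1 to both values alone gives 3.14. The fold of gene 7 nearly equals that of gene 50, and both rest on dormant values of about 1 FPKM or less. Gene 21, from 1228216 to 1233387, had 2.23 FPKM in nondormant meristems and is listed at 0 in dormant ones (q = 0.00179 in the authors' deposited table), so no fold is given. It is the only tested gene of the window listed at 0 in either group.

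Gene 21 lies close between genes that did not share its difference. Gene 20 ends 0.641 kb before it and had 18.0 FPKM in nondormant buds and 23.7 FPKM in dormant buds, and gene 22 starts 1.08 kb after it and had 7.46 FPKM in nondormant buds and 8.63 FPKM in dormant buds. Neither was called.

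Gene 26, from 1264988 to 1267833, had the smallest called fold, with 32.8 FPKM in nondormant buds and 9.41 FPKM in dormant buds (3.48-fold, q = 0.00594 in the authors' deposited table). Gene 38, from 1546716 to 1552317, had 39.8 FPKM in nondormant buds and 7.14 FPKM in dormant buds (5.58-fold, q = 0.00179 in the authors' deposited table). It sits between gene 37, with 261 FPKM in nondormant buds and 270 FPKM in dormant buds, and gene 39, with 22.9 FPKM in nondormant buds and 25.0 FPKM in dormant buds. Gene 38 was thus raised between neighbours whose values were nearly level. In all, 5 of the 12 called genes had no called tested gene on either side, and 7 had a called neighbour. The 13 uncalled neighbours of called genes had log2 ratios from -0.79 to 0.68, with a median of -0.12. The median of uncalled genes in the rest of the chromosome was -0.10. Because these neighbours were picked as uncalled, ratios near 0 are partly built in.

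Across the 11 called genes with a ratio, the median fold was 6.53 (quartiles 5.59 and 7.80). The 160 called genes of this direction in the rest of chromosome 1 showed 4.15 as their median (quartiles 2.98 and 5.79), and the 90 of them with a q under 0.01 had 4.98 (quartiles 3.75 and 6.23). Of the window's called genes, 10 differed at least 4-fold. Tested genes of the window at least 4-fold higher in nondormant buds, with dormant values above 0, were all called, 10 of 10. In the rest of the chromosome, 84 of 132 such genes (63.6%) were called. No tested gene of the window had a mean of both groups under 1 FPKM, where 5.29% of the tested genes in the rest of chromosome 1 did. These comparisons share the contrast that chose the window and are given without a test.

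The levels of the called genes varied widely in both states. Their median was 19.6 FPKM (2.23 to 372) in nondormant and 2.29 FPKM (0 to 66.4) in dormant meristems. The called genes of this direction in the rest of chromosome 1 had medians of 19.1 FPKM in nondormant buds and 4.70 FPKM in dormant buds. By nondormant value, 5 of the 12 (41.7%) lay at or above percentile 75 of all tested genes, as did 38.8% of the called genes elsewhere on the chromosome. By dormant value, 7 of the 12 (58.3%) lay below percentile 25, as did 41.9% elsewhere. Genes called in this direction were picked for a dormant value below the nondormant one, so low dormant ranks are partly built in. Together they summed to 763 FPKM in nondormant buds and 125 FPKM in dormant buds, of which gene 49 alone held 372 FPKM in nondormant buds and 66.4 FPKM in dormant buds. The 42 uncalled genes summed to 2276 FPKM in nondormant buds and 2404 FPKM in dormant buds.

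**Figure D3:**
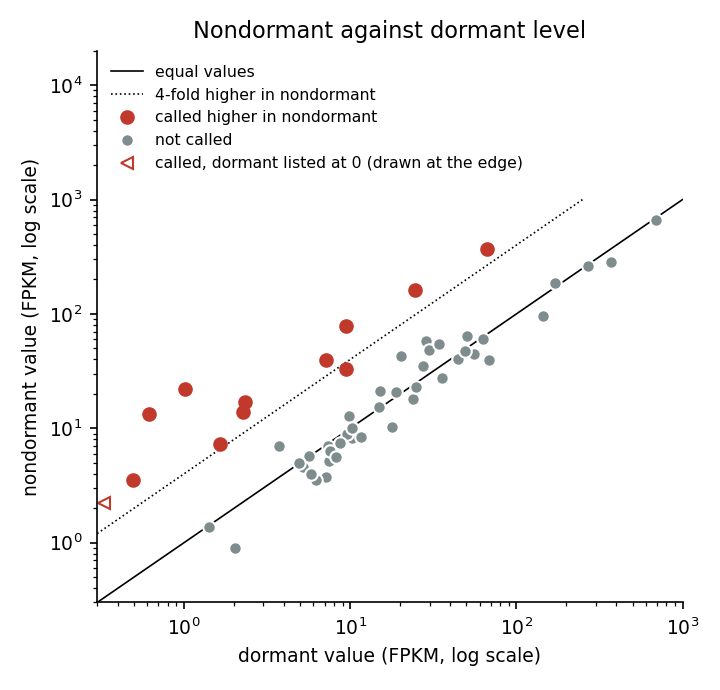
Nondormant against dormant value in FPKM (both axes log scale) for the 54 tested genes, called genes in red and genes not called in grey, with lines for equal values and for a 4-fold difference. The red points lie above the line of equal values, as the choice of called genes requires. All but gene 26 (3.48-fold) lie above the 4-fold line, where gene 21, listed at 0 in dormant meristems, is drawn at the left edge.

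Of the 42 uncalled genes, from which the call has removed those that differed most, 11 were over 1.5-fold apart. Their median log2 ratio was -0.09 (quartiles -0.40 and 0.10), beside -0.10 (quartiles -0.52 and 0.36) for the uncalled genes of the rest of the chromosome. The other 31 (73.8%) differed by 1.5-fold or less, as did 61.3% of the uncalled genes elsewhere on the chromosome. Nondormant values were the higher ones in 14 of the 42 (33.3%), and dormant values in 28. Among uncalled genes in the rest of the chromosome, nondormant values were the higher ones in 44.2%. All 12 genes that the call removed from the window were higher in nondormant buds, so this tilt is partly built in. No uncalled gene differed by 4-fold, and between the highest uncalled ratio (log2 1.07) and the lowest called one (1.80) no gene was found.

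The uncalled genes nearest to a call were gene 31 and gene 2. Gene 31, from 1398742 to 1422013, had 42.4 FPKM in nondormant buds and 20.2 FPKM in dormant buds (2.11-fold, q = 0.0703 in the authors' deposited table). Gene 2, from 1013863 to 1017501, had 57.9 FPKM in nondormant buds and 28.7 FPKM in dormant buds (2.02-fold, q = 0.0848 in the authors' deposited table). On the other side, the gene with the largest excess in dormant meristems was gene 14, from 1165723 to 1167806, with 0.897 FPKM in nondormant buds and 2.02 FPKM in dormant buds (log2 ratio -1.17, q = 0.215 in the authors' deposited table). These 3 were the only ones of the 42 tested but uncalled genes that were at least 2-fold apart.

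Several of the most abundant transcripts of the window were not called, and others were. Gene 13, from 1155019 to 1157504, had the highest value in both groups, with 664 FPKM in nondormant buds and 692 FPKM in dormant buds (log2 ratio -0.06, q = 0.958 in the authors' deposited table). Gene 34, from 1448383 to 1449858, had 284 FPKM in nondormant buds and 373 FPKM in dormant buds (log2 ratio -0.40, q = 0.691 in the authors' deposited table). Gene 36, from 1477579 to 1479023, had 185 FPKM in nondormant buds and 171 FPKM in dormant buds (log2 ratio 0.11, not called). Of the 10 highest nondormant values in the window, 3 belonged to called genes (44, 45 and 49), with gene 49 second after gene 13. Of the 10 highest dormant values, 1 did, that of gene 49.

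The spacing of the genes, which the choice of the window did not use, changed along it. In the dense stretch the median gap between one tested gene and the next was 23.1 kb, with 80.9 kb at most, against 4.94 kb among the tested genes before it and 5.84 kb over chromosome 1. Spacing and calls did not go together throughout. In steps of 100 kb, the step from 1700000 to 1799999 lists 3 genes, all 3 tested and called, but the step from 1300000 to 1399999 also lists 3 genes, all tested and 0 called. The step with the most genes, from 1100000 to 1199999, lists 12, with 11 tested and 0 called, and the next one, from 1200000 to 1299999, lists 10, with 9 tested and 2 called. By the median, tested genes in the dense stretch thus lay farther apart than those before it. The called genes had a median listed span of 2.80 kb, against 4.18 kb for the uncalled genes of the window and 2.78 kb for the called genes of this direction in the rest of the chromosome.

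Of 60 genes that the table lists in the window, 6 were not tested, all with the status NOTEST and none above 0.607 FPKM in either group. Nondormant values were higher in 3 of them and dormant values in 3. Only 3 tested genes of the window share their printed interval with another gene, and 0 of the called genes do.

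The edges of the window fell between uncalled genes. The last tested gene that starts below 1 Mb, from 990027 to 996810, had 32.3 FPKM in nondormant buds and 28.8 FPKM in dormant buds. The first that starts above 2 Mb, from 2000830 to 2002380, had 25.0 FPKM in nondormant buds and 25.2 FPKM in dormant buds. Neither was called. The nearest call below gene 7 lay 552 kb and 39 tested genes away, from 525030 to 527915, with 44.5 FPKM in nondormant buds and 14.5 FPKM in dormant buds (3.07-fold, q = 0.00594 in the authors' deposited table). The nearest call above gene 53 lay 323 kb and 24 tested genes away, from 2302382 to 2307080, and was in the other direction, with 18.1 FPKM in nondormant buds and 38.7 FPKM in dormant buds (log2 ratio -1.10, q = 0.0422 in the authors' deposited table).

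The adjoining windows of 1 Mb did not have a raised share of calls in this direction. In the rest of chromosome 1, 6.56% were called higher in nondormant buds and 3.85% in dormant buds. Below 1 Mb, 4 of 69 tested genes (5.80%) were called higher in nondormant buds and 4 (5.80%) in dormant buds. From 2 to 3 Mb, 2 of 70 (2.86%) were called higher in nondormant buds and 1 (1.43%) in dormant buds. Among the 35 other windows of chromosome 1 with at least 20 tested genes, the called share in this direction had a median of 6.25% and a highest value of 14.3% (4 of 28 genes, from 51 to 52 Mb), and no other window of the chromosome held more than 8 such calls. Median log2 ratios of these 35 windows ran from -0.35 to 0.17, a range that includes the -0.04 of the window described here. Over the whole table, 2 other windows also held 12 such calls, and of 320 windows with at least 20 tested genes 1 had a higher share, on chromosome 6 from 51 to 52 Mb, with 6 of 20. At a q under 0.01 no other window held more than 8.

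**Figure D4:**
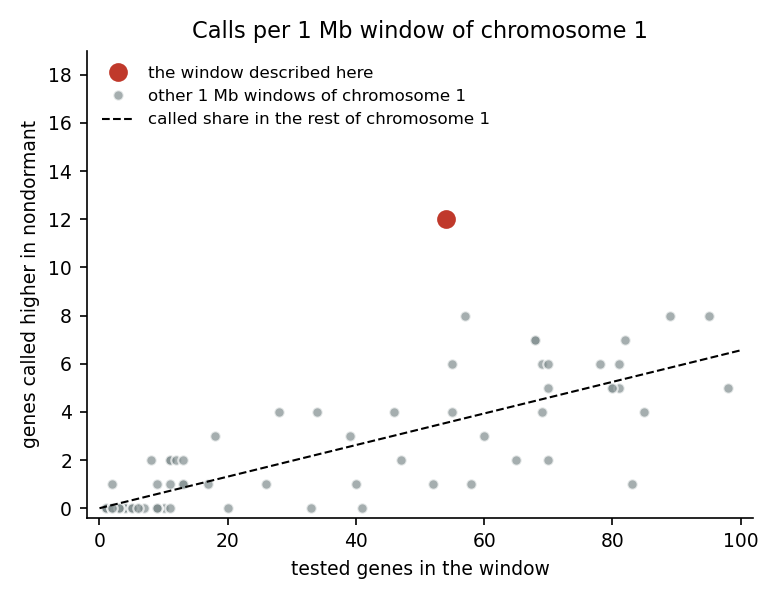
Genes called higher in nondormant meristems against tested genes for each window of 1 Mb on chromosome 1, with the window described here in red, other windows in grey, and a dashed line at the called share of the rest of the chromosome (6.56%). The red point lies at 12 of 54, and the grey points reach 8 at most.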

How the data were processed

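RNA sequencing of 4 nondormant and 4 dormant meristem samples is represented by 1 table of the authors' own comparison, with 35091 genes on 12 chromosomes. Each gene has a value per group, a status word, a test statistic, a p-value and a q-value, per the file headers. The group values are taken as FPKM from the authors, since the layout is that of Cuffdiff output, although the header prints no unit. Aligner, version, build and annotation, and how samples were combined into a group value, are not given in the sources used. The depth of the libraries is unknown, so no precision follows from it. The deposited test statistic, a score with no fixed range, was not used, nor was the deposited log2 column, part of which holds spreadsheet error text. The deposited p-value goes down to 5e-05, and the authors' q-value matches a Benjamini-Hochberg adjustment over tested genes within 5.2e-07.

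Ratios of nondormant over dormant were computed without a pseudocount. A gene counts as called at a deposited q of 0.05 or less. No test was run here: the window was chosen with this contrast, and the authors' test uses a spread between samples that cannot be examined. Members and lists were chosen with earlier results of these data known. All called genes are described by position; identifiers are printed for the 2 called genes with the largest ratios among those whose mean reached the median of all tested genes (11.6 FPKM). Genes described for their level, for nearness to a call or as neighbours include some chosen after their values were seen. Whether printed positions count from 0 or 1 is not stated. The counting and adjustment steps were tested on simulated data. The work was done in Python 3.11.15 with scipy 1.17.1, pandas 2.3.3, numpy 2.4.6 and, for plots, matplotlib 3.10.9.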

Additional observations from a re-analysis of the deposited data

How the results depend on the processing

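The count of 12 genes called higher in nondormant meristems, and of 0 called higher in dormant ones, was identical at a q under 0.01, with the adjustment recomputed, without genes whose mean is under 1 FPKM and without genes on shared intervals. It was 14 at a q of 0.1 or less and 10 with at least 4-fold required and gene 21 left out. The 4-fold version called 711 of all 19664 tested genes in this direction, and 84 of 2440 in the rest of chromosome 1. The share of all tested genes at a q of 0.1 or less was not counted, so the 14 stands without a background. Holm adjustment gave 0 calls, since the smallest deposited p of 5e-05 cannot pass over 19664 genes. The count depends on where the window lies: moved down by 0.5 Mb it held 4 such calls among 71 tested genes, and moved up by as much 9 among 57, with 1 call higher in dormant meristems. The median log2 ratio of the 54 genes stayed between -0.06 and 0.01 under 7 alternatives (3 pseudocounts, centring, quantile normalization and 2 filters), so its sign is not settled. For the rest of chromosome 1 the median was -0.023 after centring on all tested genes, against -0.08 without centring. Ratios of the 11 called genes above 0 in both groups, 1.80 to 4.44 on the log2 scale, ran from 1.59 to 3.52 with a pseudocount of 1 and from 1.43 to 3.48 after quantile normalization, settings that could hardly turn ratios of this size. No paired analysis was possible because the table gives each group as a single value, and for the same reason no replicate could be left out. Genes 7, 43 and 50 have dormant values near or under 1 FPKM, which limits the precision of their folds.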
